A study of Saccharomyces cerevisiae with 48 samples.

Results

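The 10 genes of glucose uptake in Saccharomyces cerevisiae described here were chosen by name and not by a rule on measured values. Earlier results of these data were known when they were chosen. The main hexose transporters are HXT1 (YHR094C), HXT2 (YMR011W), HXT3 (YDR345C), HXT4 (YHR092C), HXT5 (YHR096C), HXT6 (YDR343C) and HXT7 (YDR342C). The others are the glucose sensors SNF3 (YDL194W) and RGT2 (YDL138W), and the galactose permease GAL2 (YLR081W). All 10 were found among the 6713 identifiers of the expression table. RNA was sequenced from 3 yeast strains in log phase, after a few generations in rich medium with dextrose (YPD) alone or in YPD with 0.8% 1-butanol, 1% isobutanol or ethanol. Ethanol was given at 4% to aerobic cultures, which were shaken in flasks, and at 3% to anaerobic cultures, which were kept in a chamber without oxygen, so that ethanol dose and oxygen cannot be told apart. The strains are NCYC3290 (labelled NCY3290, called WA), a West African isolate from bili wine, Y7568 (PAP), a mosaic strain from papaya, and IL01, a mosaic strain from Illinois, and each is a single isolate. Every combination of strain, medium and oxygen had 2 replicates, which gave 24 groups and 48 libraries, and the methods state that replicates were collected on different days.

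Values are RPKM, reads per kilobase of gene scaled to the library's depth, which allows levels to be compared between genes other than HXT6 and HXT7. The reads behind the scaling ranged from 7480286 to 13938540 per library (median 9762380.5), so that 3 reads in a gene of 1 kb corresponded to an RPKM of 0.215 to 0.401. Replicates correlated at r = 0.9365 to 0.9919 over 5704 genes, and all 10 genes used to check the oxygen labels separated aerobic from anaerobic libraries without overlap. The strain labels were checked with 11 genes that marked 1 strain in all libraries outside anaerobic ethanol, aerobic ones included (above an RPKM of 5 against under 0.5). In anaerobic ethanol all 11 behaved as labelled in PAP and in IL01, but in the libraries labelled WA 5 of 11 did, including 0 of the 3 that marked WA, and these libraries lay nearest to IL01 in ethanol (r = 0.964, against 0.935 for the nearest WA group). They are therefore called the libraries labelled WA in anaerobic ethanol, and the calls of members that rest on them are also given without WA.

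Glucose enters yeast by facilitated diffusion through the Hxt proteins, which differ in affinity and are made at different glucose levels. Snf3 and Rgt2 are transporter-like sensors in the plasma membrane; when they bind glucose, the corepressors Mth1 and Std1 are degraded and the repressor Rgt1 releases the HXT promoters, while Mig1 represses the genes of higher-affinity carriers when glucose is plentiful. Hxt1 and Hxt3 are low-affinity carriers, Hxt2 and Hxt4 have higher affinity, Hxt6 and Hxt7 are high-affinity carriers, Hxt5 is known from slow growth and stress, and Gal2 carries galactose as well as glucose.

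HXT6 and HXT7 are neighbouring copies on chromosome IV of the S288c genome (build R64, minus strand, 1159608 to 1161320 and 1154216 to 1155928), each 1713 bases long. Their last bases are shown because they decide how far the 2 genes could be told apart by 100-base single-end reads. The coding sequences differ at 3 positions counted from 1 at the A of the start codon, T1632C, G1666A and T1677C (HXT6 base first), all in the last 90 bases, where capitals mark the differing bases (chrIV:1159608-1159697 for HXT6 and chrIV:1154216-1154305 for HXT7, minus strand, 5′ to 3′).
HXT6: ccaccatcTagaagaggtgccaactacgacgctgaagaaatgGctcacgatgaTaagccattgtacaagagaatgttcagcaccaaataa
HXT7: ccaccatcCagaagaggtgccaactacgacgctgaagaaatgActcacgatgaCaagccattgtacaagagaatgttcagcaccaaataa
Of the 1614 windows of 100 bases inside either gene, 1532 (94.9%) occurred at a second place in the reference genome, against 3.61% for HXT3, 1.24% for HXT1, 1.19% for HXT5 and 0% for HXT2, HXT4, SNF3, RGT2 and GAL2. How reads shared by both genes were counted was not given in the sources used here. RPKM divides by the whole gene, so the levels of HXT6 and HXT7, and their sum, may be understated and are compared only with their own levels in other libraries. Values of either taken singly are uncertain too, and the tests of their mean change over strains are set beside tests on their summed RPKM. The reference is S288c, and sequence differences of these strains from it were not analysed here.

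The promoters were searched over 1000 bases before the start codon, as a description of the regulatory sequence, for the Rgt1 motif CGGANNA on both strands. HXT3 held 9 matches and HXT1 held 8, and 0.0167% and 0.0334% of the 5996 windows of that length in the genome held as many. HXT5 held 4 (3.49%), HXT2, HXT4, HXT6 and GAL2 held 3 each (11.2%) and HXT7 held 2 (31.6%), while SNF3 and RGT2 held 0 and 66.5% of all windows held at least 1. The stretches of 240 bases with the most matches in HXT3 (chrIV:1164959-1165198, minus strand, 538 to 299 bases before the start codon), HXT1 (chrVIII:293348-293587, minus strand, 962 to 723 bases before it) and HXT2 (chrXIII:287499-287738, plus strand, 580 to 341 bases before it) are printed 5′ to 3′ with the Rgt1 matches in capitals, since HXT3 rose and HXT1 and HXT2 fell in the butanols.
HXT3: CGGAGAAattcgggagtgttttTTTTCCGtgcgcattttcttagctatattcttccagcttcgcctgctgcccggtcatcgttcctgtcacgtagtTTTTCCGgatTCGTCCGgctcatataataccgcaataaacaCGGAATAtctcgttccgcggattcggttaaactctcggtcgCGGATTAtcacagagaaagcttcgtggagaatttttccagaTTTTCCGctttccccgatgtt
HXT1: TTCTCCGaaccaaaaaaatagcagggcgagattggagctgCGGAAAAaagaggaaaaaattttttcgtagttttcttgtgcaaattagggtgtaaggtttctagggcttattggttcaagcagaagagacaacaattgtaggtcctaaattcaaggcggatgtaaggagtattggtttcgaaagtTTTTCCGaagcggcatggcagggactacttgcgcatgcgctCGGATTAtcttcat
HXT2: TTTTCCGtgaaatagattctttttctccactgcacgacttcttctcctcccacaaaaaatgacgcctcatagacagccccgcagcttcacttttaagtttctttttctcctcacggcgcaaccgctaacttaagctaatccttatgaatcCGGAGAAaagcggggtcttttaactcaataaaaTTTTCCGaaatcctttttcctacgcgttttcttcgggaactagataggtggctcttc
These stretches hold 7, 4 and 3 matches. Mig1 motifs (CCGGGG or else CTGGGG or else GCGGGG or else GTGGGG) were found 4 times in HXT2 and in HXT4, 3 times in HXT6, 2 times in HXT1, HXT3, HXT7 and SNF3, 1 time in HXT5 and 0 times in RGT2 and GAL2, with 41.8% of all windows holding at least 1. The stress response element AGGGG was found 5 times in HXT6 and 4 times in HXT7, and 55% of all windows held at least 1. A match is a string of letters and was not tested as a site.

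**Figure D1:**
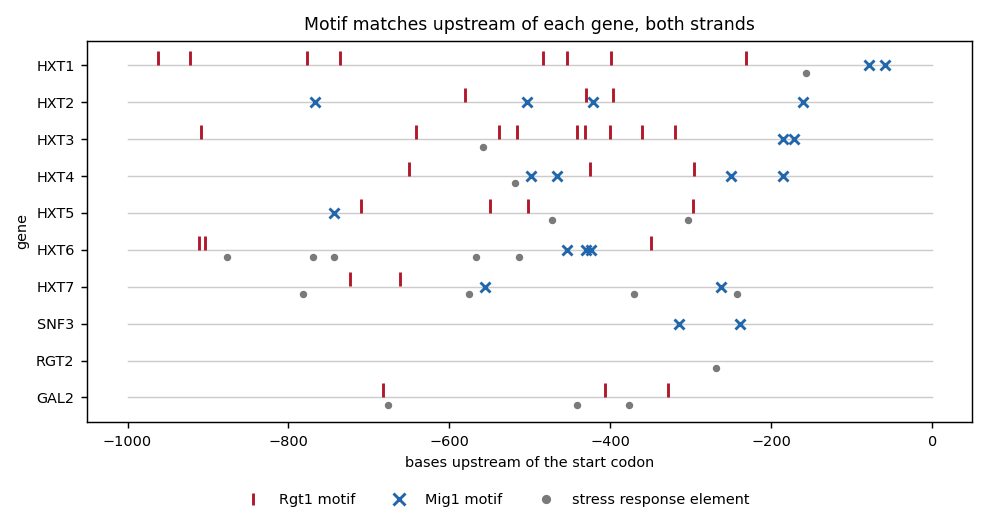
Matches to the Rgt1, Mig1 and stress response element motifs in the 1000 bases before the start codon of each of the 10 genes, on either strand; the x axis is the distance in bases upstream of the start codon and each symbol is 1 match. HXT3 and HXT1 hold the most Rgt1 matches, 9 and 8, and SNF3 and RGT2 hold 0.

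Among HXT1 to HXT5, the carriers whose reads could be told apart, HXT2 and HXT3 together made up 86.7% to 99.8% of the summed RPKM (median 98.1% over 48 libraries). The sum itself ranged from 861 to 2761. In aerobic YPD, HXT2 took 54.6% ± 7.67 (SD, n = 6) and HXT3 41.3% ± 8.63, and the next were HXT1 with 2.62% ± 0.83 and HXT4 with 1.49% ± 0.292. In aerobic ethanol HXT4 held 8.97% ± 5.02 of the sum.

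The first question was which members changed when each alcohol was added to YPD, as the mean of the 3 strains. HXT5 and GAL2 were mostly under the expression minimum (a mean RPKM of 1 over the libraries of a comparison), as was HXT7 in the anaerobic butanols, so 8 or 9 of the 10 members were tested. In aerobic 1-butanol 2 rose and 5 fell of 8 tested (FDR under 1%), where 10.9% of all genes tested passed. In aerobic isobutanol 1 rose and 5 fell of 8 tested (10.6% of all genes), and in aerobic ethanol 3 rose and 1 fell of 8 tested (7.15%). In the anaerobic cultures 4 rose and 2 fell of 8 tested in 1-butanol (27.7% of all genes), 2 rose and 2 fell of 8 tested in isobutanol (14.1%) and 4 rose and 2 fell of 9 tested in ethanol (13.1%). After quantile normalization the counts were 1 and 5 in aerobic 1-butanol, where RGT2 was lost, 3 and 2 in aerobic ethanol, where RGT2 fell too, and 4 and 4 in anaerobic ethanol, where HXT2 and RGT2 fell too. Without WA 3 members passed in anaerobic ethanol. HXT1 fell in all 6 of these comparisons, HXT3 rose in all 4 with a butanol, and HXT2 fell in those 4. The 3 comparisons of an oxygen condition share their YPD libraries and are not independent of each other.

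**Figure D2:**
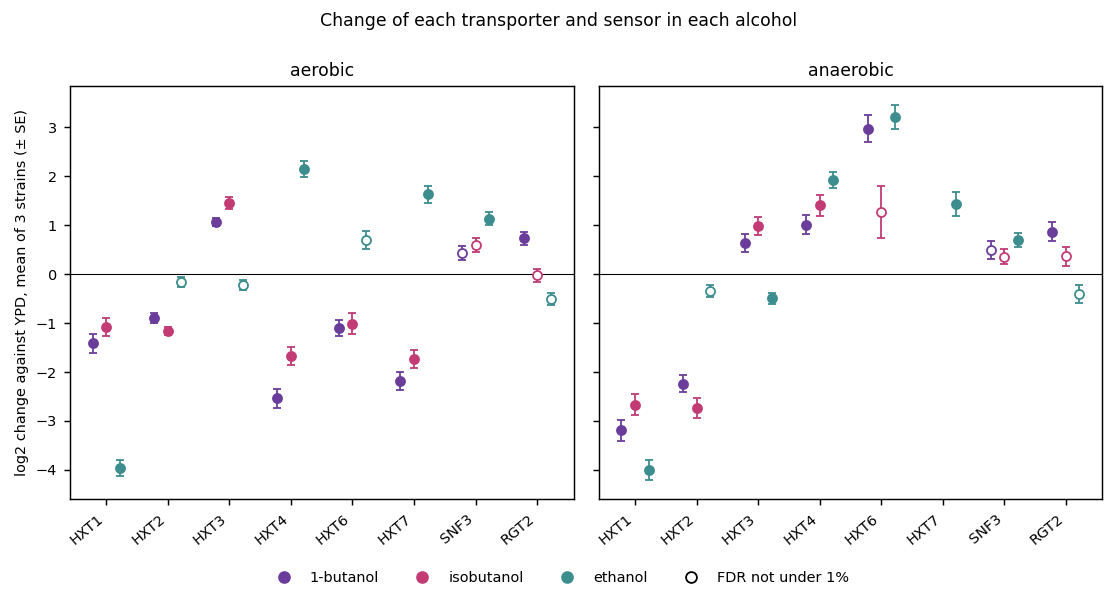
Log2 change against YPD of log2(RPKM + 0.5) for HXT1 to HXT4, HXT6, HXT7, SNF3 and RGT2 where tested, as the mean of the 3 strains with its standard error, in each alcohol and oxygen condition (filled symbols passed an FDR of 1%). HXT5, tested only without oxygen, is not drawn. HXT1 lies under 0 in all 6 comparisons, HXT3 lies over 0 and HXT2 under 0 in all 4 with a butanol, and HXT4 lies over 0 in ethanol and in the anaerobic butanols but under 0 in the aerobic butanols.

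HXT3, the abundant low-affinity carrier, rose in the butanols. In aerobic YPD its RPKM was 546 and 632 (WA), 452 and 481 (PAP), and 406 and 362 (IL01) for replicates 1 and 2. In aerobic 1-butanol it was 1029 and 1015 (WA), 1082 and 886 (PAP), and 1095 and 856 (IL01), and in aerobic isobutanol 1415 and 1422 (WA), 1713 and 965 (PAP), and 1324 and 1062 (IL01). Every aerobic butanol library was thus above every aerobic YPD library. The mean change was 1.07 ± 0.08 (SE) on the log2 scale in 1-butanol, 2.10-fold (adjusted p = 4.11e-05), and 1.45 ± 0.12 in isobutanol, 2.74-fold (adjusted p = 5.67e-05). In aerobic ethanol HXT3 was 325 to 484, overlapping YPD, with a change of -0.22 ± 0.10 (95% interval -0.45 to 0.01, adjusted p = 0.157).

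Without oxygen HXT3 rose in the butanols too. In anaerobic YPD it was 856 and 829 (WA), 549 and 408 (PAP), and 883 and 999 (IL01). In anaerobic 1-butanol it was 896 and 1014 (WA), 1211 and 1164 (PAP), and 1199 and 1268 (IL01), and in isobutanol 2063 and 2622 (WA), 1137 and 1061 (PAP), and 917 and 1437 (IL01). Both ranges overlapped that of YPD. HXT3 rose by 0.63 ± 0.19 (adjusted p = 0.00713) and 0.99 ± 0.19 (adjusted p = 0.00158). With each library left out in turn, the 1-butanol call ended for 10 of the 12 libraries (adjusted p up to 0.0499) and held only without PAP YPD replicate 1 or WA 1-butanol replicate 1, and the isobutanol call ended without WA YPD replicate 2 or PAP isobutanol replicate 1 (up to 0.0115). In anaerobic ethanol HXT3 was 395 to 755 and fell by 0.49 ± 0.11 (adjusted p = 0.00233). Without WA the value was -0.29 ± 0.14 (adjusted p = 0.260), which did not pass, nor did the call hold without IL01 YPD replicate 2, WA ethanol replicate 1 or 2 or PAP ethanol replicate 1 (up to 0.0221).

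HXT2, the other abundant carrier and one of higher affinity, moved the opposite way. In aerobic YPD its RPKM was 452 and 629 (WA), 617 and 628 (PAP), and 742 and 765 (IL01). In aerobic 1-butanol it was 254 and 279 (WA), 409.7 and 309 (PAP), and 426 and 393 (IL01), and in aerobic isobutanol 177 and 181 (WA), 265 and 320.3 (PAP), and 386 and 477 (IL01). The 1-butanol libraries all lay under the YPD libraries, whereas in isobutanol IL01 overlapped the lowest YPD library. HXT2 fell by 0.90 ± 0.10 in 1-butanol (adjusted p = 0.000403) and by 1.16 ± 0.08 in isobutanol (adjusted p = 1.89e-05). In aerobic ethanol it was 431 to 654, a change of -0.16 ± 0.11 (95% interval -0.40 to 0.08, adjusted p = 0.326).

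The fall of HXT2 was larger in the anaerobic butanols. Anaerobic YPD gave 960.1 and 971 (WA), 1256 and 803 (PAP), and 993 and 997 (IL01). Anaerobic 1-butanol gave 174 and 185 (WA), 318 and 315 (PAP), and 180.3 and 145 (IL01), and isobutanol 60.6 and 96.6 (WA), 370.0 and 374 (PAP), and 76.3 and 167 (IL01). No butanol library reached the YPD range. HXT2 fell by 2.24 ± 0.18 (4.71-fold, adjusted p = 2.11e-13) and by 2.74 ± 0.20 (6.67-fold, adjusted p = 6.62e-07). The anaerobic change minus the aerobic change, tested on its own, was -1.34 ± 0.18 in 1-butanol (adjusted p = 4.83e-05) and -1.58 ± 0.24 in isobutanol (adjusted p = 0.000467). In anaerobic ethanol HXT2 was 1008 and 888 (labelled WA), 990.5 and 1116 (PAP), and 413 and 538 (IL01), and the change was -0.35 ± 0.12 (adjusted p = 0.0479; without WA -0.51 ± 0.16, adjusted p = 0.0862).

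**Figure D3:**
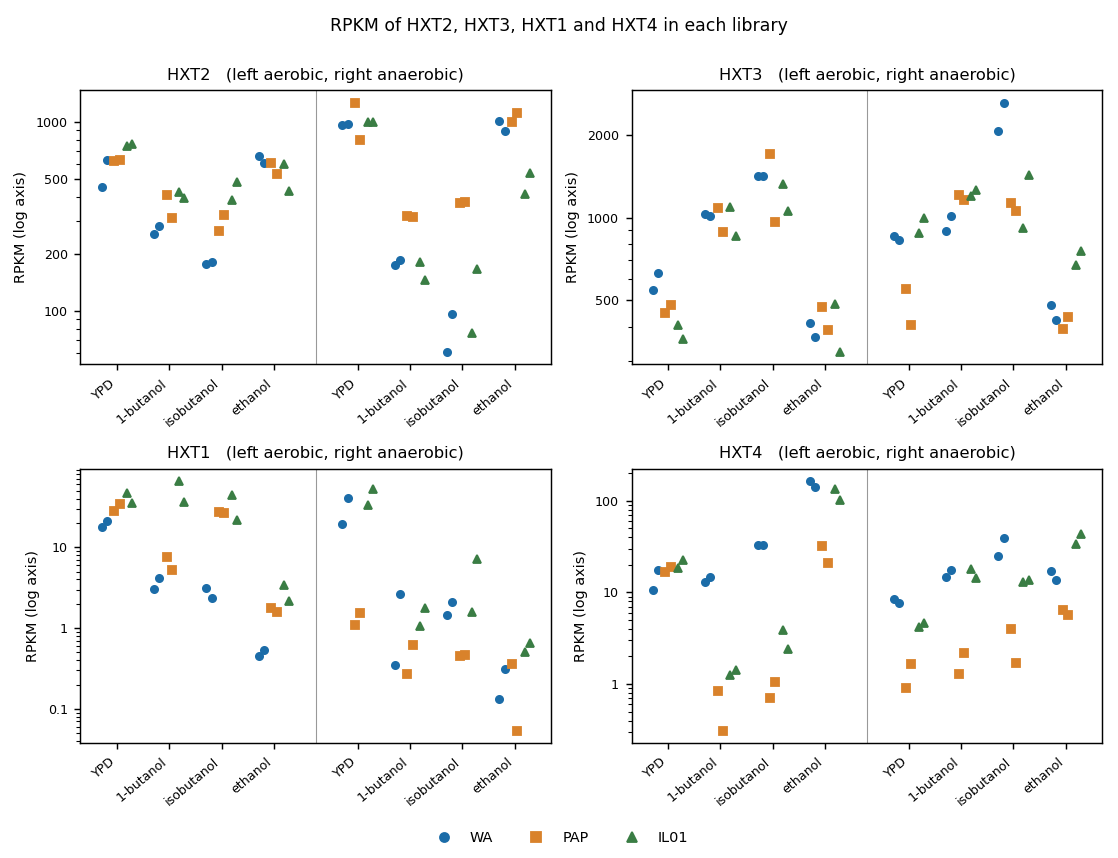
RPKM (log axis) of HXT2, HXT3, HXT1 and HXT4 in each of the 48 libraries, by medium and oxygen condition, with a colour for each strain. HXT3 is above HXT2 in the butanols, HXT1 is at most 3.37 in ethanol, and HXT4 is highest in aerobic ethanol, where the WA and IL01 libraries lie between 102 and 163.

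The ratio of HXT3 to HXT2 within a library put both movements in 1 number. It averaged 0.788 ± 0.277 (SD, n = 6) in aerobic YPD and 0.721 ± 0.0817 in aerobic ethanol, against 2.99 ± 0.711 in 1-butanol and 5.17 ± 2.58 in isobutanol. In the anaerobic cultures it averaged 0.764 ± 0.232 in YPD, 0.795 ± 0.561 in ethanol, 5.58 ± 1.90 in 1-butanol and 14.6 ± 13.0 in isobutanol. The lowest ratio of the 24 butanol libraries, 2.18, was above the highest of the 24 YPD and ethanol libraries, 1.62, so the media did not overlap in either oxygen condition or in any strain. The highest ratios, up to 34.0, came from anaerobic isobutanol. The gene pair was picked from the values, so the ratio is a description and carries no test.

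**Figure D4:**
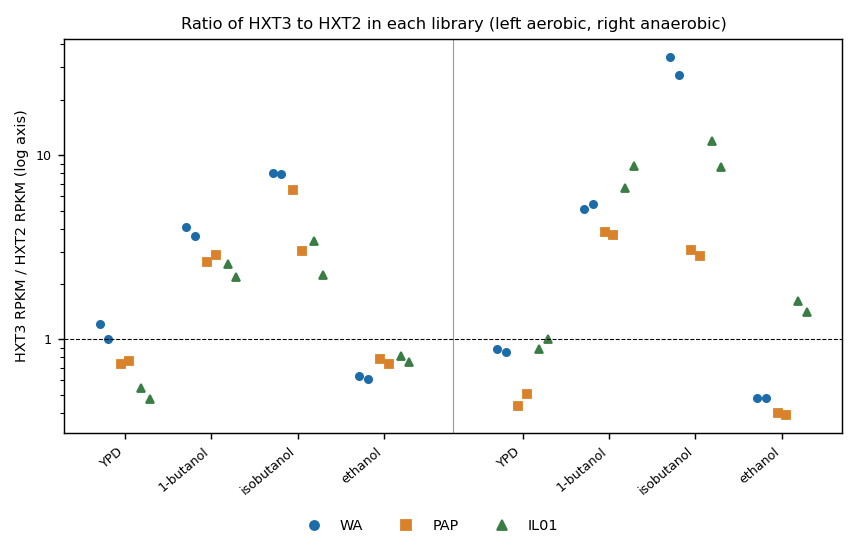
Ratio of HXT3 to HXT2 RPKM in each library (log axis), by medium and oxygen condition, coloured by strain. All 24 butanol libraries lie at or above 2.18 and all 24 YPD and ethanol libraries at or below 1.62.

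HXT1, the low-affinity carrier that is induced by high glucose, fell in every alcohol as the mean of the strains. In aerobic YPD its RPKM was 18.0 and 21.5 (WA), 27.9 and 34.6 (PAP), and 46.6 and 35.1 (IL01). In aerobic ethanol it was 0.452 and 0.543 (WA), 1.77 and 1.59 (PAP), and 3.37 and 2.19 (IL01), clear of the YPD range. HXT1 fell by 3.95 ± 0.16 (15.5-fold, adjusted p = 5.86e-07). In aerobic 1-butanol it was 3.03 and 4.18 (WA), 7.69 and 5.19 (PAP), and 65.5 and 36.6 (IL01), and in isobutanol 3.09 and 2.39 (WA), 27.4 and 26.8 (PAP), and 44 and 21.5 (IL01). WA and PAP lay under the YPD range in 1-butanol while IL01 lay within or above it. The mean over strains fell by 1.42 ± 0.19 in 1-butanol (adjusted p = 0.00102) and by 1.08 ± 0.18 in isobutanol (adjusted p = 0.00275), the latter call ending without PAP YPD replicate 2, IL01 YPD replicate 1, WA isobutanol replicate 1 or 2 or PAP isobutanol replicate 1 or 2 (adjusted p up to 0.0165).

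In anaerobic YPD HXT1 was 19.5 and 41.2 (WA), 1.08 and 1.53 (PAP), and 33.0 and 52.5 (IL01), so PAP stood far under the other strains before any alcohol was added. In anaerobic 1-butanol it was 0.271 to 2.65, in isobutanol 0.452 to 7.07 and in ethanol 0.0540 to 0.650. PAP in YPD overlapped the alcohol libraries, whereas WA and IL01 in YPD lay above all of them. HXT1 fell by 3.19 ± 0.22 in 1-butanol (adjusted p = 4.8e-15), by 2.67 ± 0.22 in isobutanol (adjusted p = 1.92e-06) and by 4.00 ± 0.21 in ethanol (adjusted p = 1.65e-10; without WA -3.33 ± 0.27, adjusted p = 2.05e-05). The change differed between strains in 1-butanol (joint test over strains, adjusted p = 1.09e-05, with 2.38% of all genes passing) and in ethanol (adjusted p = 2.95e-05, 4.67% of all genes), where it also passed without WA (adjusted p = 0.00616). The changes by strain in 1-butanol were -4.15 ± 0.38 (WA), -0.95 ± 0.38 (PAP) and -4.49 ± 0.38 (IL01).

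HXT4, a carrier of higher affinity that is under Mig1 repression, rose in ethanol as the mean of the strains. Across the butanols HXT4 moved in opposite directions with and without oxygen on that mean, but not in every strain. In aerobic YPD its RPKM was 10.5 and 17.6 (WA), 16.6 and 18.9 (PAP), and 18.5 and 22.6 (IL01). In aerobic ethanol it was 163 and 139.9 (WA), 32.0 and 21.1 (PAP), and 134 and 102 (IL01), where only 1 PAP library lay within the YPD range. The rise was 2.15 ± 0.17 (4.44-fold, adjusted p = 2.98e-05). In aerobic 1-butanol HXT4 was 13.1 and 14.8 (WA), 0.845 and 0.311 (PAP), and 1.26 and 1.41 (IL01), and in isobutanol 33.0 and 32.7 (WA), 0.708 and 1.06 (PAP), and 3.92 and 2.43 (IL01). All PAP and IL01 libraries in the butanols lay under the YPD range, while those of WA lay within or above it. The mean over strains fell by 2.54 ± 0.19 (adjusted p = 3.84e-05) and by 1.68 ± 0.18 (adjusted p = 0.000241).

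The difference between strains passed its own test for HXT4 in both, with an adjusted p of 0.00970 in 1-butanol (0.269% of all genes passed) and 0.00497 in isobutanol (0.125%). In 1-butanol the changes were 0.03 ± 0.33 (WA), -4.12 ± 0.33 (PAP) and -3.51 ± 0.33 (IL01). With each library left out in turn, the 1-butanol call held only without WA YPD replicate 1 or 2 and ended without any other (adjusted p up to 0.0886), and the isobutanol call held only without WA YPD replicate 1 or 2 or IL01 isobutanol replicate 1 or 2 (up to 0.0539).

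In anaerobic YPD HXT4 was 8.55 and 7.66 (WA), 0.901 and 1.67 (PAP), and 4.2 and 4.63 (IL01). In anaerobic 1-butanol it was 1.29 to 18.1, in isobutanol 1.70 to 39.5 and in ethanol 5.66 to 43.5. The alcohol ranges reached above the YPD range but overlapped it. By strain the mean RPKM was 16.02 (WA), 1.748 (PAP) and 16.27 (IL01) in 1-butanol. In isobutanol it was 32.13 (WA), 2.835 (PAP) and 13.2 (IL01). WA in isobutanol thus lay above its own YPD libraries with and without oxygen, and PAP in 1-butanol overlapped its own. HXT4 rose by 1.01 ± 0.20 in 1-butanol (adjusted p = 9.21e-05), by 1.40 ± 0.21 in isobutanol (adjusted p = 0.000268) and by 1.92 ± 0.17 in ethanol (adjusted p = 1.41e-07; without WA 2.45 ± 0.23, adjusted p = 6.98e-05). The change without oxygen exceeded that with oxygen by 3.55 ± 0.26 in 1-butanol (adjusted p = 6.94e-08) and by 3.08 ± 0.29 in isobutanol (adjusted p = 3.57e-06), whereas in ethanol the difference was -0.23 ± 0.24 (adjusted p = 0.595).

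Of the near-identical high-affinity carriers HXT6 and HXT7, HXT6 rose in anaerobic 1-butanol and ethanol. HXT6 was 0.422 to 7.51 in aerobic YPD and 0.187 to 4.73 in anaerobic YPD. In anaerobic 1-butanol it was 1.5 and 2.50 (WA), 7.21 and 7.83 (PAP), and 279.6 and 56.7 (IL01), and in anaerobic ethanol 24.3 and 43.2 in the libraries labelled WA, 0.902 and 0.486 (PAP) and 90.8 and 118 (IL01). IL01 held the highest libraries in both. HXT6 rose by 2.97 ± 0.28 in 1-butanol (adjusted p = 3.26e-11; summed with HXT7 2.67 ± 0.28, adjusted p = 4.88e-10) and by 3.21 ± 0.25 in ethanol (adjusted p = 2.92e-08, summed 2.89 ± 0.26, adjusted p = 2.12e-07, without WA 2.19 ± 0.31, adjusted p = 0.00124). In anaerobic isobutanol HXT6 was 0.420 and 0.437 (WA), 1.19 and 0.520 (PAP), and 257 and 12.6 (IL01), with the replicates of IL01 far apart, and the change was 1.26 ± 0.53 (adjusted p = 0.0903, summed 1.14 ± 0.53, adjusted p = 0.120).

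The strains differed in these changes of HXT6. The joint test over strains gave an adjusted p of 0.000307 in anaerobic 1-butanol and 1.52e-06 in anaerobic ethanol. In ethanol the changes were 5.23 ± 0.43 for the libraries labelled WA, -0.66 ± 0.43 for PAP and 5.04 ± 0.43 for IL01. Without WA the ethanol difference kept its call (adjusted p = 0.000993). The 1-butanol call ended without PAP YPD replicate 1 or 2 or WA 1-butanol replicate 1 or 2 (adjusted p up to 0.214).

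In the aerobic butanols the mean over strains of both copies fell, while the strains differed. HXT7 was 2.39 and 4.29 (WA), 0.179 and 0.0995 (PAP), and 16.6 and 21.4 (IL01) in aerobic YPD. It was 0 to 0.545 in 1-butanol and 0 to 2.10 in isobutanol, where 0 means that no read was listed. All 8 libraries without a read of HXT7 were of PAP. HXT7 fell by 2.18 ± 0.18 in 1-butanol (adjusted p = 6.83e-05) and by 1.74 ± 0.19 in isobutanol (adjusted p = 0.000215), and HXT6 fell by 1.10 ± 0.16 (adjusted p = 0.00161) and 1.01 ± 0.21 (adjusted p = 0.00965). HXT6 reached the expression minimum in both comparisons only through the IL01 libraries of YPD, and every other library was under an RPKM of 1. HXT6 was 0.682 and 0.422 (WA), 0.536 and 0.497 (PAP), and 6.54 and 7.51 (IL01) in aerobic YPD. It was 0.909 and 0.471 (WA), 0.305 and 0.157 (PAP), and 0.495 and 0.419 (IL01) in 1-butanol and 0.442 and 0.982 (WA), 0.179 and 0.358 (PAP), and 0.903 and 0.330 (IL01) in isobutanol, so that IL01 and PAP lay under their own YPD libraries in both, PAP at few reads, and WA did not. Summed, the 2 had mean values of -2.07 ± 0.18 (adjusted p = 9.81e-05) and -1.68 ± 0.17 (adjusted p = 0.000154). The joint test over strains on the sum gave an adjusted p of 0.0137 in 1-butanol, which did not pass, and 0.00790 in isobutanol. By strain the sum passed only in IL01, with -4.25 ± 0.32 in 1-butanol (adjusted p = 0.000219) and -4.06 ± 0.29 in isobutanol (adjusted p = 9.81e-05), against -1.36 ± 0.32 and -0.39 ± 0.29 in WA (adjusted p = 0.0284 and 0.564) and -0.61 ± 0.32 and -0.60 ± 0.29 in PAP (adjusted p = 0.315 and 0.356). On the deposited log2 scale, where 0 stands for no reads, HXT7 did not pass in either (adjusted p = 0.0177 and 0.0349) nor HXT6 in isobutanol (adjusted p = 0.0228). HXT6 in isobutanol held only without WA YPD replicate 1 or 2 or IL01 isobutanol replicate 1 (otherwise up to 0.0383). The change of HXT7 differed between strains in both butanols (joint test, adjusted p = 0.00970 and 0.00903), as in 1-butanol with -1.88 ± 0.32 (WA), -0.27 ± 0.32 (PAP) and -4.37 ± 0.32 (IL01), and these calls held only without WA YPD replicate 1 or 2 in 1-butanol (otherwise up to 0.0629) and WA YPD replicate 1 or 2 in isobutanol (otherwise up to 0.0539).

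In aerobic ethanol HXT7 was 39.4 and 41.9 (WA), 0.177 and 0.0994 (PAP), and 45.4 and 58.8 (IL01), above YPD in WA and IL01 and near 0 in PAP. It rose by 1.63 ± 0.17 (adjusted p = 0.000212), and the change of HXT6 was 0.70 ± 0.18 (adjusted p = 0.0264). The summed RPKM of the pair rose by 1.58 ± 0.14 (adjusted p = 8.63e-05). In anaerobic ethanol HXT7 was 0 to 8.87, a rise of 1.43 ± 0.24 (adjusted p = 0.000322) that did not pass without WA (0.67 ± 0.30, adjusted p = 0.254). The split of reads between the 2 copies rests on the few reads that tell them apart.

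**Figure D5:**
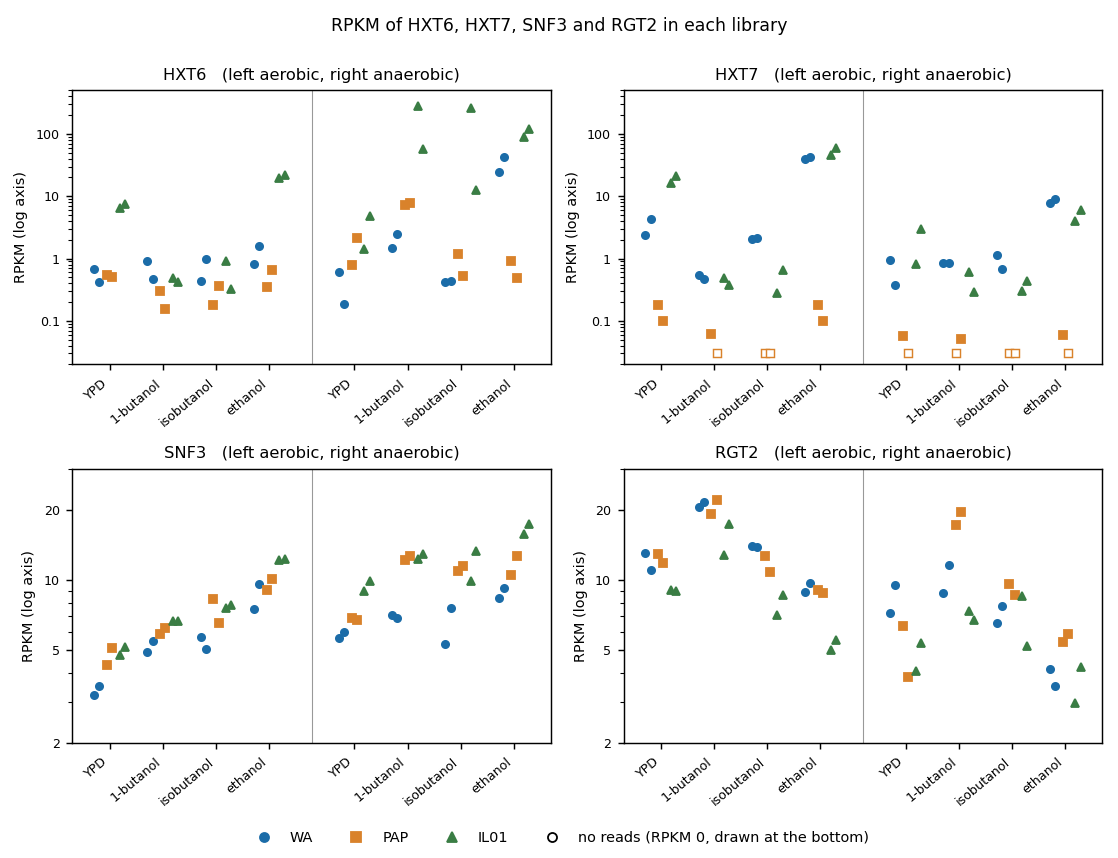
RPKM (log axis) of HXT6, HXT7, SNF3 and RGT2 in each library, by medium and oxygen condition, coloured by strain, with open symbols for libraries without a read. HXT6 reaches 279.6 in an IL01 library of anaerobic 1-butanol, and all 8 open symbols of HXT7 are PAP libraries.

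Of the sensors, SNF3 rose in ethanol and RGT2 in 1-butanol. SNF3, the high-affinity sensor, was 3.21 to 5.14 in aerobic YPD and 7.54 and 9.58 (WA), 9.03 and 10.2 (PAP), and 12.2 and 12.3 (IL01) in aerobic ethanol. It rose by 1.13 ± 0.13 (adjusted p = 0.000482). In anaerobic ethanol the rise was 0.69 ± 0.14 (adjusted p = 0.00190), which did not pass without WA (0.75 ± 0.20, adjusted p = 0.0433) or without WA YPD replicate 2, IL01 YPD replicate 1 or 2, WA ethanol replicate 1 or 2 or PAP ethanol replicate 2 (adjusted p up to 0.0131). In the butanols SNF3 had values of 0.43 ± 0.13 and 0.60 ± 0.15 with oxygen (adjusted p = 0.0478 and 0.0194) and of 0.49 ± 0.18 and 0.36 ± 0.15 without it (adjusted p = 0.0266 and 0.0813), none of which passed.

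RGT2, the low-affinity sensor, was 13.1 and 11.1 (WA), 12.9 and 11.8 (PAP), and 9.11 and 8.97 (IL01) in aerobic YPD and 20.5 and 21.7 (WA), 19.2 and 22.1 (PAP), and 12.8 and 17.3 (IL01) in aerobic 1-butanol. In anaerobic YPD it was 3.86 to 9.52 and in anaerobic 1-butanol 6.73 to 19.6. By strain the mean went from 8.37 to 10.2 (WA), 5.10 to 18.45 (PAP) and 4.70 to 7.05 (IL01), most in PAP. The joint test over strains did not pass for RGT2 there. RGT2 rose by 0.73 ± 0.13 (adjusted p = 0.00459) and 0.87 ± 0.19 (adjusted p = 0.000374). The aerobic call held only without WA YPD replicate 1 or 2 or IL01 1-butanol replicate 1 (otherwise up to 0.0292) and did not pass after quantile normalization (adjusted p = 0.0193), and the anaerobic call ended without WA 1-butanol replicate 2 (adjusted p = 0.0104). In isobutanol the values were -0.02 ± 0.13 with oxygen (95% interval -0.32 to 0.28) and 0.36 ± 0.19 without it (adjusted p = 0.161), and in ethanol -0.51 ± 0.13 (adjusted p = 0.0251) and -0.40 ± 0.18 (adjusted p = 0.134). The ratio of RGT2 to SNF3 RPKM averaged 2.70 ± 0.884 (SD, n = 6) in aerobic YPD and 0.820 ± 0.316 in aerobic ethanol.

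HXT5 and GAL2 had few reads. HXT5 had an RPKM of 0.0676 to 6.45 over the 48 libraries and GAL2 of 0 to 2.07. HXT5 was 0.481 to 2.07 in anaerobic YPD and 0.601 to 3.70 in anaerobic 1-butanol, overlapping, with a change of 0.31 ± 0.25 (95% interval -0.19 to 0.81, adjusted p = 0.333). In anaerobic isobutanol and ethanol the changes of HXT5 were 0.09 ± 0.28 (adjusted p = 0.849) and 0.16 ± 0.20 (adjusted p = 0.623), and it was not tested in aerobic cultures, where its RPKM was 0.194 to 0.542 in YPD and 0.144 to 0.639 in ethanol. GAL2 was 0 to 0.551 in aerobic YPD and 0.117 to 0.347 in aerobic ethanol, and differences at these levels were not detectable at this depth. These cultures contained glucose, under which GAL2 is known to be repressed.

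The design also compared anaerobic with aerobic cultures in each medium. In YPD 3 rose and 4 fell of 8 tested, where 40.6% of all genes passed. In 1-butanol 3 rose and 3 fell of 7 tested (59.5% of all genes), in isobutanol 2 rose and 2 fell of 7 tested (49.4%) and in ethanol, where the dose differed too, 3 rose and 3 fell of 7 tested (60.3%). The median log2 change of all genes was 0.07 to 0.26 in these comparisons. After quantile normalization 2 rose and 4 fell in YPD, with SNF3 lost, and 3 rose and 3 fell in 1-butanol, with HXT3 gained and SNF3 lost. In isobutanol 1 rose and 3 fell, with HXT3 and RGT2 gained and HXT4 and HXT6 lost, and in ethanol 1 rose and 3 fell, with HXT2 and HXT3 lost.

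In YPD without oxygen HXT2 rose by 0.65 ± 0.12 (adjusted p = 0.00121) and HXT3 by 0.61 ± 0.11 (adjusted p = 0.00106), the latter with 0.52 ± 0.20 (WA), 0.02 ± 0.20 (PAP) and 1.29 ± 0.20 (IL01). HXT4 fell by 2.06 ± 0.19 (adjusted p = 6.26e-06) and was 10.5 to 22.6 in aerobic and 0.901 to 8.55 in anaerobic YPD, without overlap. HXT7 fell by 1.72 ± 0.28 (adjusted p = 0.000350; summed with HXT6 -1.10 ± 0.30, adjusted p = 0.00984). The mean of HXT1 fell by 1.19 ± 0.18 (adjusted p = 0.000195), but only PAP showed a fall, from 27.9 and 34.6 to 1.08 and 1.53, while WA and IL01 overlapped between the conditions. These 5 calls held without any 1 library. Of the sensors, SNF3 rose by 0.69 ± 0.18 (adjusted p = 0.00736) and RGT2 fell by 0.88 ± 0.20 (adjusted p = 0.00377). The call of SNF3 held only without WA YPD aerobic replicate 1 or 2 (otherwise up to 0.0405), and that of RGT2 ended without PAP YPD aerobic replicate 1 or 2, WA YPD anaerobic replicate 1 or 2, PAP YPD anaerobic replicate 2 or IL01 YPD anaerobic replicate 1 (adjusted p up to 0.0298).

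In the butanols the direction of HXT4 was the opposite, a rise without oxygen of 1.48 ± 0.20 in 1-butanol (adjusted p = 8.51e-08) and 1.02 ± 0.22 in isobutanol (adjusted p = 0.00228), the latter ending without PAP isobutanol aerobic replicate 1, IL01 isobutanol aerobic replicate 2 or PAP isobutanol anaerobic replicate 1 (adjusted p up to 0.0155). These HXT4 values are means over strains, and WA showed little change. Its mean RPKM with and without oxygen was 13.93 and 16.02 in 1-butanol and 32.85 and 32.13 in isobutanol. In PAP HXT4 was 0.5783 and 1.748, then 0.8851 and 2.835, and in IL01 1.335 and 16.27, then 3.174 and 13.2. HXT1 fell by 2.97 ± 0.22 in 1-butanol (adjusted p = 3.27e-13) and by 2.78 ± 0.25 in isobutanol (adjusted p = 3.48e-06), and HXT2 by 0.69 ± 0.14 (adjusted p = 4.38e-05) and 0.93 ± 0.14 (adjusted p = 0.000205). In isobutanol the values by strain were -0.51 ± 0.43 (WA), -4.84 ± 0.43 (PAP) and -2.99 ± 0.43 (IL01) for HXT1, and -1.22 ± 0.25 (WA), 0.35 ± 0.25 (PAP) and -1.92 ± 0.25 (IL01) for HXT2. HXT6 rose by 3.86 ± 0.26 in 1-butanol (adjusted p = 2.08e-14; summed with HXT7 3.64 ± 0.25, adjusted p = 3.33e-14), with 1.06 ± 0.44 (WA), 3.46 ± 0.44 (PAP) and 7.05 ± 0.44 (IL01). In isobutanol HXT6 rose by 2.06 ± 0.47 (adjusted p = 0.00286; summed 1.72 ± 0.42, adjusted p = 0.00448), with -0.35 ± 0.81 (WA), 0.78 ± 0.81 (PAP) and 5.75 ± 0.81 (IL01). The isobutanol call ended without WA isobutanol aerobic replicate 1, IL01 isobutanol aerobic replicate 1 or 2 or PAP isobutanol anaerobic replicate 2 (adjusted p up to 0.0290). Of the sensors, SNF3 rose by 0.75 ± 0.17 and RGT2 fell by 0.74 ± 0.15 in 1-butanol (adjusted p = 0.000219 and 9.81e-05).

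In ethanol without oxygen HXT2 rose by 0.46 ± 0.09 (adjusted p = 0.000101; without WA 0.39 ± 0.08, adjusted p = 0.00166) and HXT3 by 0.34 ± 0.08 (adjusted p = 0.00151; without WA 0.40 ± 0.07, adjusted p = 0.00124), the HXT3 call ending without IL01 ethanol aerobic replicate 2 (adjusted p = 0.0144). HXT4 fell by 2.29 ± 0.11 (adjusted p = 2.28e-13; without WA -1.81 ± 0.11, adjusted p = 1.71e-06) and RGT2 by 0.77 ± 0.14 (adjusted p = 7.76e-05; without WA -0.57 ± 0.15, adjusted p = 0.00922). HXT7 fell by 1.92 ± 0.15 (adjusted p = 7.18e-10), while HXT6 rose by 2.29 ± 0.16 (adjusted p = 1.39e-10). Without WA the value was -1.77 ± 0.21 for HXT7 (adjusted p = 9.71e-05) and 1.27 ± 0.18 for HXT6 (adjusted p = 0.000222). The summed RPKM of the pair had a value of 0.21 ± 0.14 (adjusted p = 0.184), and the 2 copies, called in opposite directions, gave no call when summed. Without WA HXT1 (-1.62 ± 0.27, adjusted p = 0.000740) and HXT5 (1.23 ± 0.29, adjusted p = 0.00506) reached the expression minimum and passed too. Each reached it only through the condition where it was higher, so these calls are not separate from the filter. The mean RPKM of HXT1 was 1.68 (PAP) and 2.78 (IL01) with oxygen and 0.207 and 0.577 without it. For HXT5 it was 0.458 and 0.286 with oxygen and 0.940 and 2.33 without it.

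Whether the response to an alcohol depended on oxygen was tested directly. In 1-butanol 5 of 8 members tested passed (7.18% of all genes), in isobutanol 3 of 8 (3.47%) and in ethanol 1 of 8 (4.92%). Besides HXT2 and HXT4, HXT1 passed in 1-butanol (-1.78 ± 0.30, adjusted p = 0.000431) and in isobutanol (-1.59 ± 0.31, adjusted p = 0.00335), the latter ending without PAP YPD aerobic replicate 1, WA isobutanol aerobic replicate 1, PAP isobutanol aerobic replicate 2, WA YPD anaerobic replicate 2, PAP YPD anaerobic replicate 1, IL01 YPD anaerobic replicate 1, WA isobutanol anaerobic replicate 2 or PAP isobutanol anaerobic replicate 2 (up to 0.0121). HXT6 passed in 1-butanol (4.07 ± 0.47, adjusted p = 1.14e-05; summed with HXT7 4.74 ± 0.49, adjusted p = 2.8e-06). HXT6 in ethanol (2.50 ± 0.34, adjusted p = 0.000158) did not pass without WA (1.47 ± 0.38, adjusted p = 0.0349) or summed with HXT7 (1.31 ± 0.35, adjusted p = 0.0249). HXT7 passed in 1-butanol (1.86 ± 0.34, adjusted p = 0.00109) but not on the deposited log2 scale (adjusted p = 0.309). HXT7 reached the expression minimum there only through aerobic YPD, with a mean RPKM of 7.50 against 0.325 in aerobic 1-butanol. Without oxygen its mean was 0.869 in YPD and 0.444 in 1-butanol, so a fall was hardly detectable there and the difference does not show a response that depends on oxygen.

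The 2 butanols were then set against ethanol at the doses used, which differ. In aerobic cultures 8 of 8 members tested differed (14.0% of all genes): HXT3 was higher in the butanols by 1.48 ± 0.09 (adjusted p = 4.43e-09), HXT1 by 2.71 ± 0.15 (adjusted p = 1.59e-09) and RGT2 by 0.86 ± 0.09 (adjusted p = 2.82e-06). HXT4 was lower by a log2 difference of -4.26 ± 0.15 (adjusted p = 7.39e-12), HXT2 of -0.87 ± 0.09 (adjusted p = 2.0e-06), SNF3 of -0.62 ± 0.10 (adjusted p = 0.000151) and the summed HXT6 and HXT7 of -3.46 ± 0.13 (adjusted p = 1.43e-11). In anaerobic cultures 6 of 9 passed (23.9%). HXT3 was 1.31 ± 0.12 (adjusted p = 1.22e-07), HXT2 -2.14 ± 0.15 (adjusted p = 2.4e-09), HXT4 -0.72 ± 0.16 (adjusted p = 0.00201), RGT2 1.02 ± 0.14 (adjusted p = 2.37e-05) and HXT1 1.07 ± 0.23 (adjusted p = 0.00151), all as log2 butanols over ethanol. Without WA 4 members passed. These were HXT3 (1.10 ± 0.15, adjusted p = 0.000304), HXT2 (-1.71 ± 0.19, adjusted p = 6.95e-05), HXT4 (-1.34 ± 0.22, adjusted p = 0.000900) and RGT2 (1.00 ± 0.19, adjusted p = 0.00217). HXT1 did not pass without WA (0.90 ± 0.28, adjusted p = 0.0332) or without PAP ethanol replicate 2 (adjusted p = 0.0115), and HXT4 did not without WA ethanol replicate 1 or PAP ethanol replicate 1 (up to 0.0146). HXT7 (-1.77 ± 0.22, adjusted p = 4.82e-06) also passed, but it was under the expression minimum without WA, and HXT6 and HXT7 summed did not pass (-0.99 ± 0.43, adjusted p = 0.0846). 1-Butanol at 0.8% and isobutanol at 1% were not tested against each other.

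Between the strains in YPD, 2 of 8 members tested differed in aerobic cultures (4.42% of all genes) and 2 in anaerobic cultures (7.62%). With oxygen these were HXT6, with an RPKM of 0.682 and 0.422 (WA), 0.536 and 0.497 (PAP), and 6.54 and 7.51 (IL01) (joint test, adjusted p = 0.00318), and HXT7 (adjusted p = 0.000222), both highest in IL01. Without oxygen they were HXT1 (adjusted p = 3.89e-06) and HXT4 (adjusted p = 0.00227), both lowest in PAP. The calls of HXT6 and HXT4 ended without IL01 YPD aerobic replicate 1 or 2 or PAP YPD anaerobic replicate 1 or 2 (adjusted p up to 0.0602) and without WA YPD anaerobic replicate 1 or 2 or PAP YPD anaerobic replicate 1 or 2 (up to 0.0407). The effect of oxygen on HXT1 differed between strains (adjusted p = 0.000287, 1.40% of all genes), with a log2 change without oxygen of -4.14 ± 0.31 in PAP (adjusted p = 2.18e-06), 0.52 ± 0.31 in WA (adjusted p = 0.276) and 0.04 ± 0.31 in IL01 (adjusted p = 0.928). In aerobic ethanol 0 members and 0 of all genes differed between strains in their change by limma, while 4 of the members and 762 genes had an unadjusted p under 0.05. In anaerobic isobutanol 0 members passed, 3 at an unadjusted p under 0.05, with 0.316% of all genes passing.

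Among the 8 other genes between the sensors and the HXT promoters, MTH1, which encodes a corepressor that works with Rgt1, rose in all 6 alcohol comparisons, and it was the only one of the 8 to pass in any of them. Its RPKM was 1.57 to 7.36 in aerobic YPD and 11.2 to 31.5 in aerobic ethanol, without overlap. In anaerobic YPD it was 0.164 to 6.86 and in anaerobic 1-butanol 5.24 to 49.8. MTH1 rose by 1.28 ± 0.20 in 1-butanol (adjusted p = 0.00247), 1.44 ± 0.21 in isobutanol (adjusted p = 0.00123) and 2.35 ± 0.20 in ethanol (adjusted p = 4.91e-05) with oxygen, and by 3.32 ± 0.19, 3.47 ± 0.18 and 3.35 ± 0.20 without it (adjusted p = 4.94e-17, 3.05e-08 and 1.05e-09), the last being 2.60 ± 0.23 without WA (adjusted p = 4.2e-05). The median log2 change of the 8 lay between -0.08 and 0.18 over the 6 comparisons, against 0.04 to 0.21 for all genes.

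The enzymes that phosphorylate incoming glucose showed calls in both directions. HXK1, a hexokinase that is known to be repressed by glucose, rose by 2.55 ± 0.24 in aerobic ethanol (adjusted p = 9.79e-05) and by 2.22 ± 0.18, 1.62 ± 0.16 and 2.36 ± 0.10 in anaerobic 1-butanol, isobutanol and ethanol (adjusted p = 5.25e-13, 9.25e-06 and 1.23e-11), the last being 2.05 ± 0.12 without WA (adjusted p = 1.81e-06). EMI2, a glucokinase paralog, fell in aerobic 1-butanol (-1.20 ± 0.15, adjusted p = 0.000748), and HXK2, the main hexokinase in glucose, fell in anaerobic 1-butanol (-1.11 ± 0.20, adjusted p = 1.99e-05) and aerobic ethanol (-0.45 ± 0.08, adjusted p = 0.00413). In aerobic 1-butanol, isobutanol and ethanol and then the same 3 without oxygen, the numbers of the 4 genes that rose were 0, 0, 1, 2, 2 and 3 and that fell 1, 0, 1, 1, 0 and 0, with medians of -0.52 to 1.21. In that order, 8.42%, 8.15%, 5.77%, 20.6%, 11.5% and 8.34% of all genes tested rose and 2.45%, 2.41%, 1.39%, 7.13%, 2.65% and 4.76% fell, and these shares are the background to the counts of each list.

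GAL3, the galactose sensor of the galactose regulon, rose in all 6 alcohol comparisons, by 1.27 ± 0.17, 1.33 ± 0.18 and 1.46 ± 0.18 with oxygen and by 1.21 ± 0.19, 1.34 ± 0.16 and 0.99 ± 0.17 without it (the last 0.76 ± 0.24 without WA, adjusted p = 0.0909, which did not pass), while the permease GAL2 was at an RPKM of 0 to 2.07 throughout. PGM2, a phosphoglucomutase, rose by 3.13 ± 0.18, 1.91 ± 0.20 and 2.35 ± 0.12 in anaerobic 1-butanol, isobutanol and ethanol, the last being 1.82 ± 0.14 without WA (adjusted p = 1.62e-05). In the same order of comparisons, 2, 2, 3, 4, 4 and 2 of the 5 or 6 regulon genes tested rose and 0, 0, 0, 0, 0 and 0 fell (medians of 0.42 to 0.93), where 5.77% to 20.6% of all genes rose.

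The shares of all genes that rose (8.42%, 8.15%, 5.77%, 20.6%, 11.5% and 8.34%) and fell (1.39% to 7.13%) stand beside the next counts too. Among 10 genes repressed by glucose, of which 5 to 7 were tested, 0, 1, 3, 3, 4 and 3 rose and 0, 0, 0, 1, 0 and 0 fell in that order (medians of 0.33 to 0.78). HAP4, a subunit of the activator of respiration genes, rose by 1.14 ± 0.15 in aerobic ethanol, and SUC2, the invertase gene, rose by 1.32 ± 0.15 in anaerobic isobutanol. Of the 13 Snf1 and Mig1 genes, 2, 0, 1, 2, 3 and 2 rose and 0, 0, 2, 2, 0 and 2 fell (medians of 0.15 to 0.32), among them NRG1, a repressor of glucose-repressed genes, by 1.19 ± 0.15 and MIG3 by -0.90 ± 0.15 in aerobic ethanol. Of 5 genes of transporter ubiquitination, 1, 1, 0, 3, 1 and 0 rose and 0, 0, 0, 0, 0 and 0 fell (medians of 0.12 to 0.58), with the arrestin gene ROG3 at 1.05 ± 0.18 in anaerobic 1-butanol. The medians of all genes over the 6 comparisons were 0.04 to 0.21. Without WA the counts that rose in anaerobic ethanol were 2 of 4 for glucose phosphorylation, 1 of 5 for the galactose regulon, 2 of 7 for the glucose-repressed genes and 1 of 13 for the Snf1 and Mig1 genes, where 1 fell, and 3.23% of all genes rose and 0.853% fell. The genes that lost their call were EMI2, GAL3, ADR1, MIG3 and NRG2. Of the other 9 HXT genes only HXT8 passed the expression minimum, and in these 6 comparisons its value lay between -0.32 and 0.45 without passing. Elsewhere HXT8 passed for anaerobic against aerobic isobutanol (0.67) and between strains in YPD with and without oxygen.

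As a description, each member was correlated with all 5704 expressed genes over the 24 group means of log2(RPKM + 0.5), which share strains, media and oxygen conditions. The genes nearest to HXT3 were DPI8 (0.885), HMF1 (0.844) and ATG40 (0.836) by Pearson's r, and those nearest to HXT2 were CHS2 (0.769), RNR1 (0.754) and SVL3 (0.75). Those nearest to HXT1 were SIT1 (0.77), UTR2 (0.75) and URA4 (0.744), and to HXT4 YRO2 (0.789), FLO11 (0.754) and AGX1 (0.741). The nearest to HXT6 was MBR1 (0.846), to HXT7 CIN5 (0.808), to HXT5 PAU7 (0.929), to SNF3 PEX3 (0.878), to RGT2 HOC1 (0.852) and to GAL2 BAR1 (0.773). By Spearman's rank correlation the nearest gene was the same for HXT1, HXT3, HXT4 and SNF3. It was another for HXT2 (SVL3, 0.815), HXT5 (DMC1, 0.893), HXT6 (ISF1, 0.834), HXT7 (YJL218W, 0.886), RGT2 (PDR12, 0.885) and GAL2 (COS1, 0.721). HXT5 and GAL2 had few reads, and HXT6 and HXT7 were left out of each other's ranking.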

How the data were processed

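RNA was sequenced by the authors from the 48 cultures (rRNA-depleted, stranded libraries, single-end 100-base reads). Per the study's methods, reads were trimmed with Trimmomatic, aligned with bwa mem to S288c (build R64 per the labels) and counted per gene with HTSeq, whose strand setting was not given in the sources used here. The deposited values are log2 RPKM, with a gene without reads listed at 0, and all members' levels are the RPKM recovered from them. Multiplied by gene length and a library factor, values gave whole reads (tolerance 0.01) for 5733 of 6713 identifiers (85.4%). Depth was recovered from these steps.

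Tests used limma 3.58.1 (R 4.3.3) and a trended empirical Bayes prior on log2(RPKM + 0.5), for the genes whose mean RPKM reached 1, with 1 coefficient per group and the replicate number within an oxygen condition as a block, coded to average both replicates in every contrast, Benjamini-Hochberg adjustment over all genes tested and an FDR under 1%. Fold changes on this scale understate the change of low genes. The block follows the study's paired design by day; same-numbered libraries deviated together weakly (median r of 0.0915 aerobic and 0.0769 anaerobic over 66 pairs of groups, and 0.21 and 0.115 over 18 within a strain). Alternatives were no block, a block per strain, quantile normalization, voom weights, no expression filter, a pseudocount of 1, the deposited log2 values, HXT6 and HXT7 summed, each library left out, and no WA. The list counts without WA, and shares over HXT1 to HXT5 only, were chosen after seeing the data. The pipeline was tested on simulated data. The members and lists were chosen with earlier results of these data known. All members are named; of the other lists, at most the 2 genes with the largest change past the threshold in a comparison, and HXK2 is in 2 lists. For likeness, the rule took the 3 genes of highest Pearson r, of which 1 is printed for 6 members. By Spearman's measure only the nearest gene is given. Motifs and read sharing were computed on the R64 genome. 4 lines of the table that name no gene were not used.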

Additional observations from a re-analysis of the deposited data

Results flagged for a closer look

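Within a medium and oxygen condition, 6 of the 80 sets of 6 libraries examined had 1 library far from the rest, and all 6 of these were IL01 libraries. The nominal rate of 1 in 20 would give 4. That rate is for 6 values of 1 kind, whereas each set holds 3 strains, so it is not a chance rate here. HXT6 was 279.6 in IL01 replicate 1 of anaerobic 1-butanol (next 56.7) and 256.8 in IL01 replicate 1 of anaerobic isobutanol (next 12.6, the other IL01 replicate). In the same isobutanol library HXT5 was 6.45 (next 1.82) and GAL2 2.07 (next 0.643), while HXT1 was 7.07 in IL01 replicate 2 of anaerobic isobutanol (next 2.12). HXT7 was 3.01 in IL01 replicate 2 of anaerobic YPD (next 0.952). The lowest correlation of any replicate pair, over all groups, was r = 0.9365.

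The strains differed in the change of a member in these cases, each by the joint test of limma. With oxygen these were HXT4 in 1-butanol (adjusted p = 0.00970) and isobutanol (0.00497) and HXT7 in 1-butanol (0.00970) and isobutanol (0.00903). Without oxygen they were HXT1 in 1-butanol (1.09e-05) and ethanol (2.95e-05), HXT6 in 1-butanol (0.000307) and ethanol (1.52e-06), and HXT4 in ethanol (0.00772). The change of HXT4 in anaerobic ethanol by strain was 0.88 ± 0.29 for the libraries labelled WA, 1.91 ± 0.29 for PAP and 2.98 ± 0.29 for IL01, and without WA the difference gave an adjusted p of 0.391. In aerobic 1-butanol HXT7 summed with HXT6 did not pass the joint test over strains (adjusted p = 0.0137), while in aerobic isobutanol the sum did (0.00790). The effect of oxygen on HXT1 in YPD also differed between strains (adjusted p = 0.000287).

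The anaerobic log2 change minus the aerobic one passed its test in 1-butanol for HXT1 (-1.78), HXT2 (-1.34), HXT4 (3.55), HXT6 (4.07) and HXT7 (1.86), in isobutanol for HXT1 (-1.59), HXT2 (-1.58) and HXT4 (3.08), and in ethanol for HXT6 (2.50). HXT7 reached the expression minimum in that comparison only through aerobic YPD.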

How the results depend on the processing

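Of 9613 member values recomputed under the alternatives, 1 called value changed sign. It was the anaerobic against aerobic change within ethanol for the libraries labelled WA. With HXT6 and HXT7 summed this change was -0.03418, against 4.32 for HXT6 alone. Counts of members called for a mean change stayed within 1.5 times of those reported, apart from leaving out WA, which gave 3 against 6 in anaerobic ethanol and 0 against 1 for the dependence of the ethanol response on oxygen, and apart from leaving out 1 library. Differences between strains were less stable. Their counts with a replicate block per strain were 4 against 2 in aerobic 1-butanol, 1 against 2 in aerobic isobutanol, 3 against 0 in anaerobic isobutanol, 1 against 0 in aerobic ethanol and 5 against 3 in anaerobic ethanol. In aerobic 1-butanol (2 reported) they were 1 with quantile normalization, 0 with no filter and 0 on the deposited log2 values, in anaerobic 1-butanol (2 reported) 0, 1 and 1, with 1 under voom weights, in aerobic isobutanol 1 with quantile normalization, in anaerobic ethanol 1 on the deposited log2 values, and between strains in aerobic YPD 1 on the deposited log2 values. With no replicate block, 0 of 24 counts of members moved by over 1.5 times (4 against 3 for differences between strains in anaerobic ethanol), and the call of HXT1 for the dependence of the isobutanol response on oxygen ended (adjusted p up to 0.0146, also with voom weights). The paired fit with a block per strain could not be fitted for 7 comparisons of oxygen or of strains in YPD, for lack of residual degrees of freedom.

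With each library left out, the fit assumed that the replicate left alone varied like the other groups, and the counts ranged as follows: 6 to 7 in aerobic 1-butanol, 4 to 6 in isobutanol and 4 to 5 in ethanol, and 4 to 7, 3 to 5 and 4 to 7 without oxygen. For differences between strains they were 0 to 4, 0 to 2 and 0 to 2 with oxygen and 1 to 2, 0 to 3 and 2 to 5 without it. For oxygen they were 5 to 7 in YPD, 6 to 6 in 1-butanol, 2 to 5 in isobutanol and 5 to 7 in ethanol, for strains in YPD 1 to 2 with oxygen and 1 to 5 without it, for the effect of oxygen by strain 1 to 3, for butanols against ethanol 8 to 8 and 5 to 7, and for the dependence on oxygen 5 to 5, 2 to 4 and 1 to 1.

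On the deposited log2 values HXT7 also lost its calls in anaerobic ethanol, for oxygen in YPD and for butanols against ethanol without oxygen, and HXT6 lost its call for oxygen in isobutanol with voom weights (adjusted p = 0.0264). Counts over all genes moved more, by 0.326 to 2.86 times with quantile normalization, 0.444 to 1.03 times with no filter, 0.696 to 1.71 times with no replicate block and 1.07 to 10.9 times with a block per strain. Depth limits HXT5, GAL2 and the PAP values of HXT7, at a few reads per library, and 2 replicates per group limit differences between strains.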
